A study of Zea mays with 4 samples.

Results

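Aquaporins are membrane channels that let water and small uncharged solutes pass, and plants carry a large family of them. Plasma membrane intrinsic proteins fall into the PIP1 and PIP2 groups, tonoplast intrinsic proteins (TIPs) sit mainly in the vacuolar membrane, nodulin 26-like proteins (NIPs) carry solutes such as silicic and boric acid, and small basic intrinsic proteins (SIPs) have been placed in the endoplasmic reticulum in Arabidopsis. In leaves they take part in water movement between cells and in the exchange of solutes such as urea and ammonia with the vacuole. The genes described here are those whose name in the deposited table is a PIP1, PIP2, TIP, NIP or SIP name, and each locus was counted once. They were 28 of 43110 distinct loci, with 4 PIP1, 6 PIP2, 10 TIP, 5 NIP and 3 SIP genes. No member overlapped another locus of the table, and each stood under a single name.

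The libraries were made from the mature tissue of an expanding leaf of the maize inbred line B73, grown in hydroculture. The figure legends of the study name the sixth leaf. The 2 low nitrogen libraries came from plants given 0.04 mM nitrate, and the 2 high nitrogen libraries from plants kept at 4 mM nitrate. All plants started at the high supply, and the low nitrogen plants were moved once the third leaf had fully expanded. Calcium chloride was added to the low nitrogen solution to keep calcium equal. The study calls the 2 libraries of a treatment biological replicates, and the labels do not say whether a library stands for 1 plant or several. The p-values therefore rest on the spread between these libraries, with that of each locus drawn toward the spread of loci at a like level. Expression is given in FPKM, the fragments of a transcript scaled by its length and by the depth of the library. In bulk tissue, fewer cells of a type and less RNA per cell cannot be told apart.

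FPKM summed to 1141129 and 1043303 over all loci in the low nitrogen libraries, against 1798408 and 1764398 in the high nitrogen libraries. Total counts are unknown from FPKM. From the commonest ratio of FPKM at loci with few fragments, the depth relative to high nitrogen replicate 1 was 1.44 and 1.73 in the low nitrogen libraries and 1.14 in high nitrogen replicate 2. The 7 loci matched to the mesophyll list summed to 13705 and 10596 FPKM in low nitrogen, against 37810 and 25906 FPKM in high nitrogen, and the 6 of the bundle sheath list to 10602 and 7511 FPKM in low nitrogen, against 16721 and 22884 FPKM in high nitrogen. A few very abundant loci set these sums. Of the 7 mesophyll loci, 3 were lower in both low nitrogen libraries, 2 higher in both and 2 overlapped, and of the 6 bundle sheath loci 4 were lower in both and 2 overlapped. The 3 lower mesophyll loci were PEPC (log2 fold change -2.17), PPDK (-0.86) and a further locus matched by the symbol PPDK (-2.07). That further locus was found only through PPDK, a symbol of more than 1 reference gene, so whether it marks mesophyll is uncertain. RCA1, the symbol that matched 1 of the lower bundle sheath loci, also stands for more than 1 reference gene. The 2 higher loci and 1 overlapping locus were matched only by PEP1 or PDK1, symbols of more than 1 reference gene. These stayed at or below 26.5 FPKM, and whether they mark mesophyll is uncertain. The other overlapping locus was a second locus of the PPDK gene, at 1.63 FPKM or less. The phloem gene SUT1 had 617 and 510 FPKM in low nitrogen, against 523 and 599.8 FPKM in high nitrogen, and the 2 epidermis genes differed in direction (log2 fold changes of 0.76 at GL1 and -0.54 at OCL1). The meristem gene KN-1 was listed at 0 in all 4 libraries, and the 4 seed genes stayed at or below 2.02 FPKM. The part of these leaf marker levels in the aquaporin values below was not tested.

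At least 1 FPKM in at least 2 libraries was reached by 23 of the 28 genes. These were all 4 PIP1, all 6 PIP2, 5 of 10 TIP, all 5 NIP and all 3 SIP genes. The 5 others were TIP2-2, TIP2-3, TIP3-1, TIP3-2 and TIP4-4, none above 0.437 FPKM in any library. TIP3 genes are known from the membranes of protein storage vacuoles in seeds, and TIP3-2 was listed at 0 in all 4 libraries. Of the 23 genes, 20 were at or above 1 FPKM in every library, a share to be read beside 84.5% of all 22889 loci that passed. PIP1-6 was under 1 FPKM in both low nitrogen libraries, so it passed through high nitrogen alone and had to differ. The genes nearest the limit were NIP3-1 inside it, at 2.05 FPKM or less in every library, and TIP4-4 outside it, listed at 0 in both high nitrogen libraries with 0.437 and 0.360 FPKM in low nitrogen. TIP4-4 of maize has been found to carry urea when made in yeast.

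None of the 23 genes was called, which does not show that they were unchanged. With the program edgeR and the same thresholds, the study itself called more genes over all loci than the fit used here. A call needed a limma p, adjusted by Benjamini-Hochberg over the 22889 loci, under 0.05 and a log2 fold change beyond 1 in either direction, which 0.537% of all tested loci met (0.489% lower and 0.0481% higher in low nitrogen). At an unadjusted p under 0.05 there were 9 of 23 genes, against 20.1% of all tested loci. Of these 5 were lower in low nitrogen (10.8% of all tested loci) and 4 higher (9.29%). The low nitrogen libraries lay on 1 side of both high nitrogen libraries at 15 of 23 genes, against 53.8% of all tested loci. They lay below at 9 genes (27.2% of all tested loci) and above at 6 (26.6%). A log2 fold change beyond 1 in either direction was found at 14 of 23 genes, against 15.6% of all tested loci. It was below -1 at 8 genes (7.96% of all tested loci) and above 1 at 6 (7.62%). PIP1-6 is in each of these counts. Over the 22 other genes there were 8 at an unadjusted p under 0.05, 14 with no overlap and 13 beyond 1, with 4, 8 and 7 of them lower in low nitrogen. Of the 23 genes, 13 had a fold change below 0 (51% of all tested loci). The genes differed from each other in direction, with a median log2 fold change of -0.29 beside -0.01 over all tested loci and a range from -1.98 at PIP2-2 to 1.57 at NIP1-1. Fold changes are low over high nitrogen on log2(FPKM + 1), which understates the change of genes with low FPKM, and the smallest two-sided p that exact permutation can give for 1 gene in this design is 0.333.

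**Figure D1:**
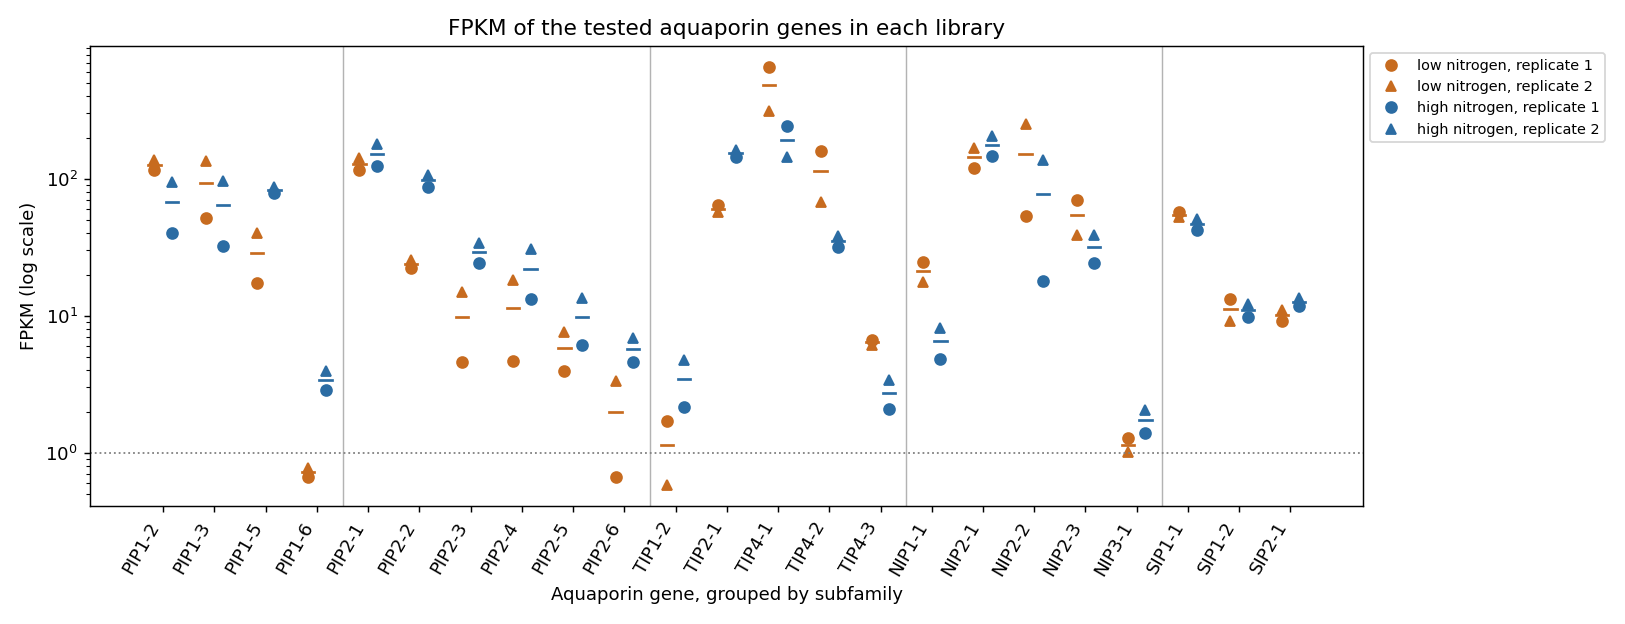
FPKM (vertical log axis) of the 23 tested aquaporin genes, grouped by subfamily along the horizontal axis, in the 2 low nitrogen libraries (left of each gene) and the 2 high nitrogen libraries (right), with a short line at each treatment's mean and a dotted line at 1 FPKM. PIP2-2 and TIP2-1 are lower in both low nitrogen libraries, the 3 TIP4 genes and NIP1-1 are higher in both, and for all 10 PIP genes replicate 2 lies above replicate 1 in both treatments.

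PIP2 proteins are the plasma membrane channels with high water transport when made alone in test cells. All 6 PIP2 genes had a log2 fold change below 0 with FPKM as deposited, and 5 of them also under both other scalings, where PIP2-1 was above 0. When the FPKM sums were made equal, PIP2-5 was at -0.017 and the median of the 6 genes at -0.57. With FPKM as deposited the median was -1.16. It ran from -1.94 without low nitrogen replicate 2 to -0.43 without low nitrogen replicate 1. At 3 of the genes both low nitrogen libraries were below both high nitrogen libraries, beside 27.2% of all tested loci. PIP2-2 (chromosome 2, B73 RefGen_v3, 169186912 to 169190423) had 22.3 and 25.4 FPKM in low nitrogen, against 87.6 and 107 FPKM in high nitrogen. The treatments stood far apart at this gene and the replicates close together, and the high nitrogen mean was 4.08 times the low nitrogen mean. Its log2 fold change was -1.98 (limma adjusted p = 0.0597, unadjusted p = 4.10e-04, SE 0.24, the standard error), the nearest to the threshold among the aquaporin genes.

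PIP2-3 (chromosome 4, 143891075 to 143894123) had 4.59 and 15.0 FPKM in low nitrogen, against 24.3 and 34.2 FPKM in high nitrogen. PIP2-6 (chromosome 7, 41553959 to 41555454) had 0.670 and 3.32 FPKM in low nitrogen, against 4.57 and 6.83 FPKM in high nitrogen. In both genes low nitrogen replicate 1 was far below replicate 2, and the log2 fold changes were -1.66 and -1.30. Without low nitrogen replicate 1 they were -0.90 and -0.61.

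PIP2-4 had 4.71 and 18.3 FPKM in low nitrogen, against 13.2 and 30.8 FPKM in high nitrogen. PIP2-5, described as an abundant water channel of maize roots, had 3.98 and 7.61 FPKM in low nitrogen, against 6.11 and 13.5 FPKM in high nitrogen. PIP2-1 had 115 and 142 FPKM in low nitrogen, against 123 and 180 FPKM in high nitrogen. The treatments overlapped at each of these genes. The log2 fold changes were -1.02 at PIP2-4, -0.63 at PIP2-5 and -0.22 at PIP2-1. With 1 library left out that of PIP2-4 ran from -1.89 (without low nitrogen replicate 2) to -0.14 (without low nitrogen replicate 1), and that of PIP2-5 from -1.15 (without high nitrogen replicate 1) to -0.12 (without high nitrogen replicate 2). That of PIP2-1 turned to 0.49 when the FPKM sums were made equal and 0.11 after quantile normalization.

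PIP2-1 and PIP2-6 are neighbours on chromosome 7 with 115147 bases between them, and their levels differed. PIP2-1 had 129 ± 19.1 FPKM in low nitrogen and 152 ± 40.1 FPKM in high nitrogen (SD, n = 2 each), and PIP2-6 had 1.995 ± 1.87 FPKM in low nitrogen and 5.70 ± 1.60 FPKM in high nitrogen (SD, n = 2 each).

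PIP1 proteins of maize transport little water alone and reach the plasma membrane when paired with PIP2 proteins. The 4 PIP1 genes lay on both sides, with a median log2 fold change of -0.39 that was 0.06 without low nitrogen replicate 1 and 0.17 at equal FPKM sums. PIP1-5 (chromosome 4, 170004633 to 170006133) had 17.3 and 40.2 FPKM in low nitrogen, against 78.5 and 87.6 FPKM in high nitrogen. Its log2 fold change was -1.61 (limma adjusted p = 0.160, unadjusted p = 0.0135, SE 0.43), and -1.03 without low nitrogen replicate 1. PIP1-6 (chromosome 9, 6467685 to 6469385) had 0.665 and 0.772 FPKM in low nitrogen, against 2.87 and 3.93 FPKM in high nitrogen. The treatments did not overlap at either gene. The log2 fold change of PIP1-6 was -1.35 with a pseudocount of 1 FPKM and -2.08 with 0.1 FPKM.

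PIP1-2 (chromosome 5, 193359341 to 193362190) had 117 and 137 FPKM in low nitrogen, against 40.0 and 94.4 FPKM in high nitrogen. Both low nitrogen libraries were above both high nitrogen libraries, and its log2 fold change was 1.03 (limma adjusted p = 0.286, unadjusted p = 0.0708, SE 0.45). Without high nitrogen replicate 1 it was 0.42. PIP1-3 had 51.6 and 135 FPKM in low nitrogen, against 32.2 and 96.7 FPKM in high nitrogen. At PIP1-3 the replicates of a treatment differed by more than the treatments, and its log2 fold change of 0.57 turned to -0.12 without low nitrogen replicate 2 and -0.21 without high nitrogen replicate 1. RefSeq gives PIP1-3 and PIP1-4 as names of the same gene. How the deposited estimates shared out fragments that match several similar PIP genes is not known, and single PIP values are uncertain to that extent.

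The locus GRMZM2G174807, named after its values were seen, is PIP1-1 among the RefSeq synonyms and lies outside the name rule. It had 338 and 631 FPKM in low nitrogen, against 593 and 866 FPKM in high nitrogen. This was above each of the 10 named PIP genes in every library, with overlapping treatments (log2 fold change -0.63, limma adjusted p = 0.441).

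All 10 PIP genes were higher in replicate 2 than in replicate 1 in low nitrogen and also in high nitrogen, while 29.3% of all tested loci were higher in replicate 2 in both treatments. The median difference between replicates 2 and 1 over the 10 PIP genes was 0.98 on the log2 scale in low nitrogen and 0.52 in high nitrogen. Over all tested loci the median was 0.00 in low nitrogen and 0.04 in high nitrogen. Among the 5 tested TIP genes, low nitrogen replicate 2 was below replicate 1 at every one, with a median of -0.78. High nitrogen replicate 2 was above replicate 1 at 22 of the 23 tested aquaporin genes, TIP4-1 being the exception. The libraries of a treatment thus differed over whole subfamilies, and the part of this difference in the treatment contrast was not tested.

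**Figure D2:**
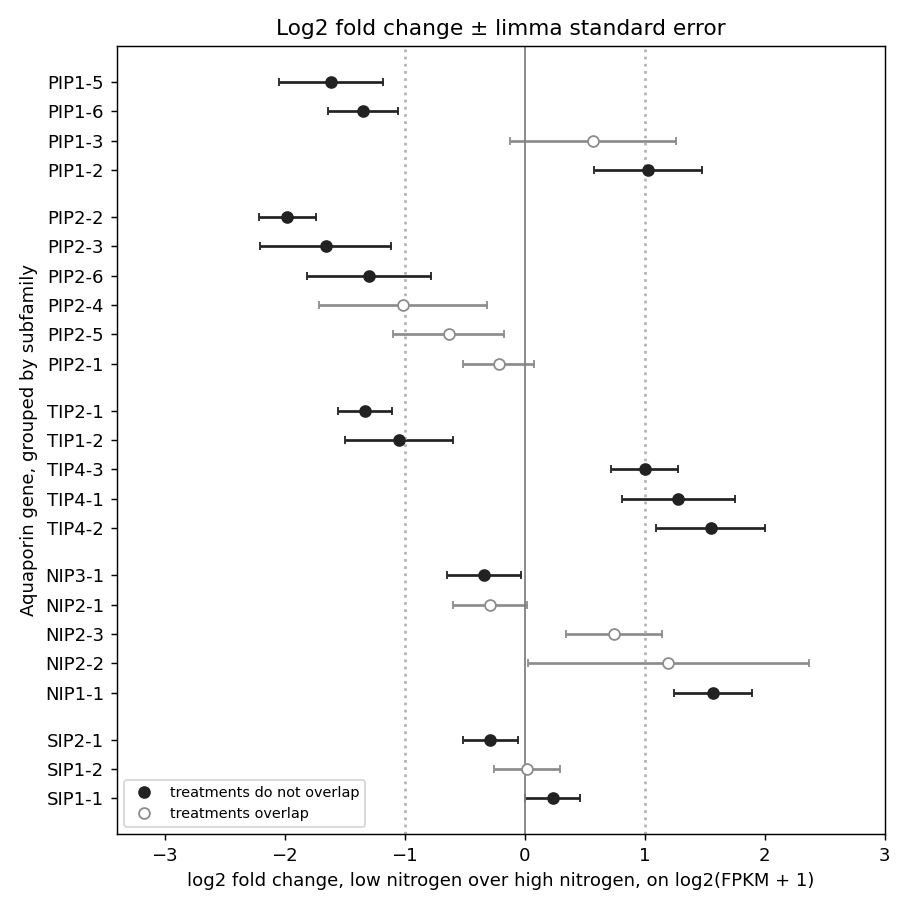
Log2 fold change, low over high nitrogen, on log2(FPKM + 1) (horizontal axis) of each tested aquaporin gene, with bars for the limma standard error, filled points where the treatments do not overlap and dotted lines at -1 and 1. The 6 PIP2 genes lie below 0 (PIP2-1 only with FPKM as deposited), the TIP4 genes lie above 0 and TIP2-1 and TIP1-2 below it, and the SIP genes lie within 0.29 of 0.

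Tonoplast intrinsic proteins move water across the vacuolar membrane, and some carry urea or ammonia. The 5 tested TIP genes had a median log2 fold change of 1.002, with the TIP4 genes above 0 and TIP1-2 and TIP2-1 below it, and the treatments did not overlap at any of the 5, beside 53.8% of all tested loci. TIP4-1 (chromosome 6, 133537405 to 133539720) had 656 and 313 FPKM in low nitrogen, against 241 and 144 FPKM in high nitrogen. It had the highest mean of the named aquaporin genes in both treatments, 485 ± 243 FPKM in low nitrogen and 192 ± 68.6 FPKM in high nitrogen (SD, n = 2 each), and its log2 fold change was 1.28 (unadjusted p = 0.0417). Low nitrogen replicate 1 stood well above the other 3 libraries, and without it the log2 fold change was 0.75.

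TIP4-2 (chromosome 8, 110236661 to 110239074) had 160 and 67.3 FPKM in low nitrogen, against 31.7 and 38.3 FPKM in high nitrogen. Its log2 fold change was 1.55 (limma adjusted p = 0.177, unadjusted p = 0.0192, SE 0.45), and 0.93 without low nitrogen replicate 1. TIP4-3 (chromosome 3, 13536786 to 13539654) had 6.71 and 6.10 FPKM in low nitrogen, against 2.10 and 3.41 FPKM in high nitrogen. All 3 tested TIP4 genes thus had both low nitrogen libraries above both high nitrogen libraries, beside 26.6% of all tested loci. The replicates were closest at TIP4-3 (log2 fold change 1.002, unadjusted p = 0.0160, limma adjusted p = 0.168).

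TIP2-1 (chromosome 4, 152458301 to 152459746), whose Arabidopsis relative carries ammonia as well as water, had 63.9 and 57.3 FPKM in low nitrogen, against 145 and 163 FPKM in high nitrogen. The replicates were close and the treatments far apart, and the log2 fold change was -1.33 (limma adjusted p = 0.101, unadjusted p = 0.00211, SE 0.23). TIP1-2 had 1.71 and 0.580 FPKM in low nitrogen, against 2.16 and 4.77 FPKM in high nitrogen, a log2 fold change of -1.05. It was -0.61 without high nitrogen replicate 2, -0.66 without low nitrogen replicate 2, -0.62 at equal FPKM sums and -1.58 with a pseudocount of 0.1 FPKM.

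Ratios of 2 genes within a library are not changed by a common factor for the library, such as equal FPKM sums. These pairs were chosen after their values were seen, and their ratios are given with no test. TIP4-1 had 10.3 and 5.46 times the FPKM of TIP2-1 in low nitrogen, against 1.67 and 0.881 times in high nitrogen. TIP4-2 had 2.51 and 1.18 times the FPKM of TIP2-1 in low nitrogen, against 0.219 and 0.234 times in high nitrogen. The order of TIP4-2 and TIP2-1 was therefore opposite in the 2 treatments. PIP1-5 had 0.148 and 0.294 times the FPKM of PIP1-2 in low nitrogen, against 1.96 and 0.928 times in high nitrogen. PIP2-2 had 0.194 and 0.178 times the FPKM of PIP2-1 in low nitrogen, against 0.711 and 0.594 times in high nitrogen.

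Shares of the summed FPKM of a subfamily were lower in both low nitrogen libraries at 10 of the 23 tested genes, higher in both at 6 and overlapping at 7. PIP1-6, which passed through high nitrogen alone, is among the 10. Shares of a subfamily depend on each other, since a rise of 1 gene lowers the shares of the rest. No such share exists for all tested loci, so these counts have nothing to be read beside. The following shares were chosen after their values were seen. PIP1-5 held 9.27% and 12.9% of the PIP1 sum in low nitrogen, against 51.1% and 31.0% in high nitrogen. The PIP1 sum is that of the named genes, without the more abundant locus listed as PIP1-1. Shares of all PIP1 transcript would be smaller. PIP2-2 held 14.7% and 11.98% of the PIP2 sum in low nitrogen, against 33.8% and 28.7% in high nitrogen. PIP2-1 held 76.05% and 67.2% in low nitrogen, against 47.6% and 48.4% in high nitrogen. TIP2-1 held 7.18% and 12.9% of the TIP sum in low nitrogen, against 34.3% and 46.1% in high nitrogen. PIP1-3 was among the genes whose shares overlapped, with 27.7% and 43.1% of the PIP1 sum in low nitrogen, against 21.0% and 34.2% in high nitrogen.

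**Figure D3:**
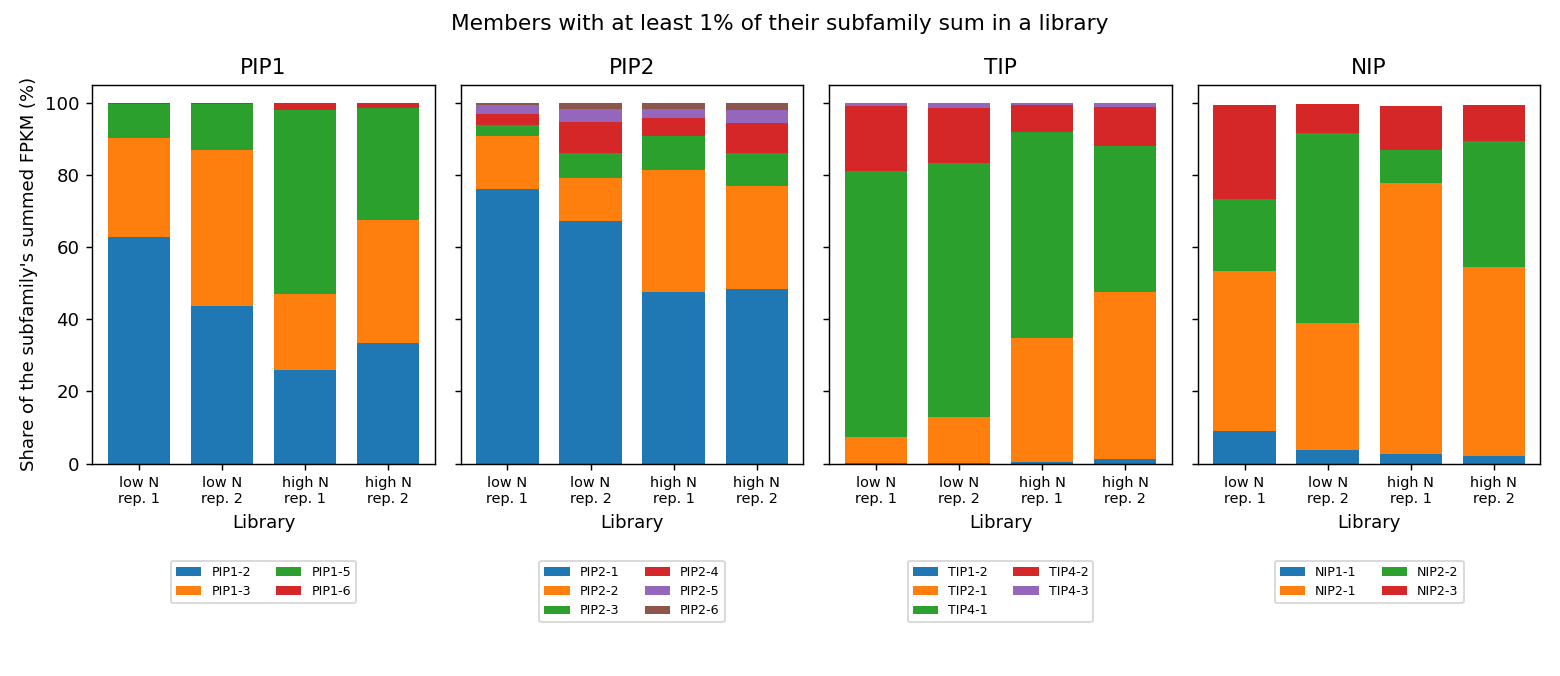
Share of the summed FPKM of the PIP1, PIP2, TIP and NIP genes (vertical axis, percent) held by each member with at least 1% in a library, as stacked bars for the 2 low nitrogen and the 2 high nitrogen libraries. PIP1-5, PIP2-2 and TIP2-1 take smaller shares in both low nitrogen libraries, and the NIP bars differ most between the replicates of a treatment. The PIP1 bars leave out the locus RefSeq lists as PIP1-1.

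The summed FPKM of a subfamily varied with the library as well as the treatment. The 6 PIP2 genes summed to 152 and 212 FPKM in low nitrogen, against 259 and 372 FPKM in high nitrogen. As a share of all FPKM of the library these sums were 0.0133% and 0.0203% in low nitrogen, against 0.0144% and 0.0211% in high nitrogen, and on that scale the treatments overlapped. The 10 TIP genes summed to 890 and 445 FPKM in low nitrogen, against 421 and 354 FPKM in high nitrogen, or 0.0780% and 0.0426% of all FPKM in low nitrogen, against 0.0234% and 0.0201% in high nitrogen. The PIP1 genes, at 186 and 313 FPKM in low nitrogen against 154 and 283 FPKM in high nitrogen, and the NIP genes, at 269 and 477 FPKM in low nitrogen against 195 and 393 FPKM in high nitrogen, overlapped between the treatments. As shares of all FPKM they did not, with 0.0163% and 0.0300% for PIP1 in low nitrogen, against 0.00854% and 0.0160% in high nitrogen. These PIP1 sums leave out the locus RefSeq lists as PIP1-1, which exceeded them in every library. That locus had 338 and 631 FPKM in low nitrogen, against 593 and 866 FPKM in high nitrogen. The separation of the PIP1 shares therefore applies to the named genes only. The NIP shares were 0.0236% and 0.0458% in low nitrogen, against 0.0108% and 0.0223% in high nitrogen. For PIP1 and NIP the gap between the treatments was narrow beside the gaps between replicates. The FPKM sums of the low nitrogen libraries were also lower, which raises shares there. With FPKM scaled to equal sums, the median log2 fold change of all tested loci was 0.59.

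Nodulin 26-like proteins carry small solutes, and the NIP2 genes of maize include channels for silicic acid. The 5 NIP genes had a median log2 fold change of 0.74, which was -0.24 without high nitrogen replicate 1. NIP1-1 (chromosome 5, 148343674 to 148346041) had 24.6 and 17.6 FPKM in low nitrogen, against 4.87 and 8.18 FPKM in high nitrogen. Both low nitrogen libraries were above both high nitrogen libraries, and the low nitrogen mean was 3.23 times the high nitrogen mean. Its log2 fold change of 1.57 was the highest of the 23 genes (limma adjusted p = 0.127, unadjusted p = 0.00489, SE 0.33).

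NIP2-1, which RefSeq lists also as Lsi1, the silicon influx channel, had 119 and 169 FPKM in low nitrogen, against 147 and 206 FPKM in high nitrogen. NIP2-2 had 53.8 and 251 FPKM in low nitrogen, against 17.9 and 138 FPKM in high nitrogen. NIP2-3, which RefSeq lists also as Lsi6, had 70.0 and 38.6 FPKM in low nitrogen, against 24.2 and 38.9 FPKM in high nitrogen. The treatments overlapped at all 3 NIP2 genes. NIP2-2 had the widest spread of the tested aquaporin genes on the log2 scale, and its log2 fold change of 1.20 had a standard error of 1.17 and turned to -0.24 without high nitrogen replicate 1.

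NIP3-1, a boron channel needed for tassel development in maize, had 1.28 and 1.006 FPKM in low nitrogen, against 1.39 and 2.05 FPKM in high nitrogen. Its log2 fold change was -0.34 (limma adjusted p = 0.580, SE 0.31), and 0.07 at equal FPKM sums.

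The 3 SIP genes had log2 fold changes between -0.29 and 0.23, with a median of 0.02. SIP1-1 had 56.8 and 52.5 FPKM in low nitrogen, against 42.6 and 50.5 FPKM in high nitrogen (log2 fold change 0.23, limma adjusted p = 0.614, SE 0.23). SIP2-1 had 9.19 and 11.1 FPKM in low nitrogen, against 11.7 and 13.4 FPKM in high nitrogen. For SIP2-1 the log2 fold change was -0.29 (limma adjusted p = 0.531, SE 0.23), and 0.36 at equal FPKM sums. SIP1-2 had 13.4 and 9.20 FPKM in low nitrogen, against 9.80 and 12.2 FPKM in high nitrogen, with a log2 fold change of 0.02. The low nitrogen libraries lay above the others at SIP1-1 and below them at SIP2-1, with fold changes about as large as their standard errors.

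By mean FPKM, TIP4-1, NIP2-2, NIP2-1, PIP2-1 and PIP1-2 led in low nitrogen, and TIP4-1, NIP2-1, TIP2-1, PIP2-1 and PIP2-2 in high nitrogen. In low nitrogen the 4 genes after TIP4-1 lay between 127 and 153 FPKM, within the spread of their libraries. In high nitrogen the first 4 lay between 152 and 192 FPKM, again within their spread. PIP2-2 was the 12th of 23 genes in low nitrogen and the 5th in high nitrogen, and TIP4-2 was the 6th in low nitrogen and the 11th in high nitrogen. TIP4-1 had a mean over the 4 libraries above that of 98.1% of all tested loci, and NIP3-1, the lowest, above 7.28%.

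**Figure D4:**
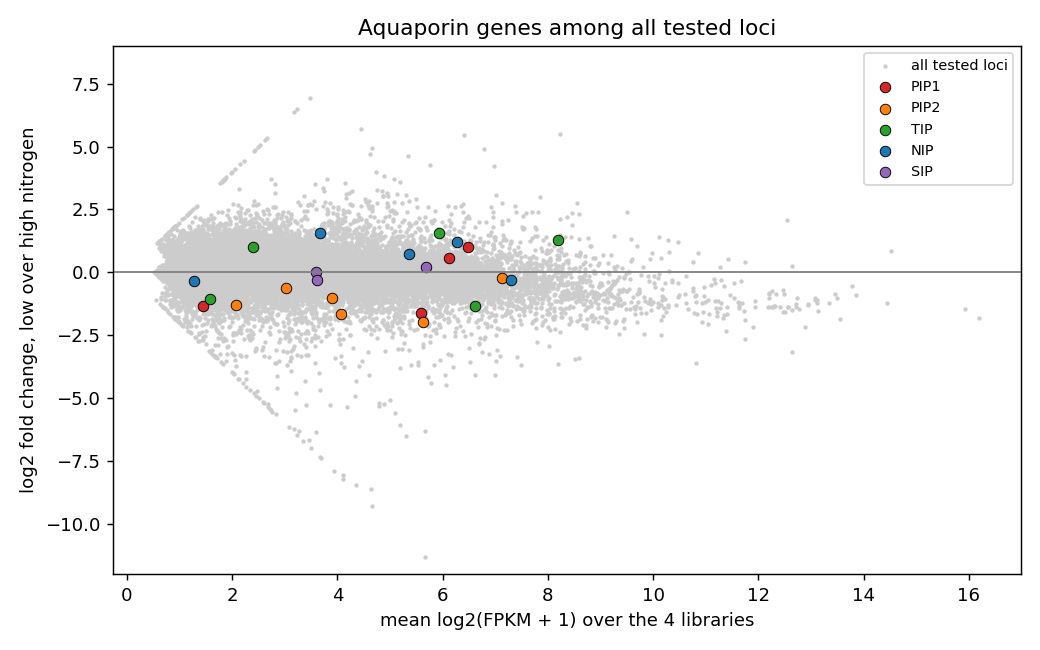
Log2 fold change, low over high nitrogen (vertical axis), against the mean log2(FPKM + 1) over the 4 libraries (horizontal axis) for all 22889 tested loci in grey and the 23 tested aquaporin genes coloured by subfamily. The aquaporin genes lie between -1.98 and 1.57, inside the spread of the other loci at their level.

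The genes are scattered over chromosomes 1 to 10, and of the 28, 5 lie on chromosome 4 and 6 on chromosome 5. On chromosome 4, PIP2-3, TIP2-1 and PIP1-3 follow each other with gaps of 8.56 and 1.19 Mb. On chromosome 5, TIP2-2, PIP1-2 and PIP2-4 follow each other with gaps of 1.40 and 1.88 Mb, so that each region holds a PIP1, a PIP2 and a TIP2 gene. Of the TIP2 genes, TIP2-1 on chromosome 4 was well expressed and TIP2-2 on chromosome 5 was listed at 0 in 3 libraries and at 0.262 FPKM in high nitrogen replicate 2. PIP2-3 had 0.974 and 0.820 times the FPKM of PIP2-4 in low nitrogen, against 1.85 and 1.11 times in high nitrogen. PIP1-2 had 2.265 and 1.015 times the FPKM of PIP1-3 in low nitrogen, against 1.24 and 0.976 times in high nitrogen, where the treatments overlapped.

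Pumps, channels and water status genes that work beside aquaporins were read from the same fit. Of 23 names searched, 11 were found on 12 loci, 7 loci were tested, and none was called, with 4 below 0 and 3 above 0 in log2 fold change and 2 at an unadjusted p under 0.05. Over all tested loci 0.537% were called, 51% were below 0 and 20.1% had an unadjusted p under 0.05. Plasma membrane proton pumps are known to drive solute uptake. MHA4 had 403 and 283 FPKM in low nitrogen, against 174 and 211 FPKM in high nitrogen (log2 fold change 0.81, limma adjusted p = 0.222). MHA2 had 225 and 132 FPKM in low nitrogen, against 331 and 285 FPKM in high nitrogen (log2 fold change -0.83, limma adjusted p = 0.262). The treatments did not overlap at either pump, and they lay in opposite directions.

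The locus RefSeq lists as vpp1, a proton-pumping pyrophosphatase of the kind found in the vacuolar membrane, had 446 and 276 FPKM in low nitrogen, against 1036 and 836 FPKM in high nitrogen. Its log2 fold change was -1.41 (limma adjusted p = 0.141, unadjusted p = 0.00858, SE 0.33). VP14, which encodes an enzyme of abscisic acid synthesis, stayed between 1.33 and 1.76 FPKM in the 4 libraries, and the dehydrin DHN1 did not exceed 0.936 FPKM in any library. DHN2 of the same list had 10.0 and 15.8 FPKM in low nitrogen, against 12.6 and 15.1 FPKM in high nitrogen (log2 fold change -0.13).

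The scaling of the libraries moved the fold changes. Equal FPKM sums moved those of the aquaporin genes by 0.41 (NIP3-1) to 0.70 (TIP4-1), and quantile normalization by -0.09 (NIP3-1) to 0.45 (TIP4-1). With FPKM scaled to equal sums, the median log2 fold change of all tested loci was 0.59, against -0.01 on the FPKM as deposited. Read against the median of all tested loci, 13 aquaporin genes were lower and 10 higher with FPKM as deposited and at equal sums, and 11 lower and 12 higher under quantile normalization. Against 0 the equal sums gave 9 lower and 14 higher. PIP2-2, PIP1-5, PIP2-3, PIP1-6, PIP2-6, TIP2-1 and TIP1-2 stayed below 0 and PIP1-2, the 3 TIP4 genes and NIP1-1 above 0 under all 3 scalings (FPKM as deposited, equal sums, quantile normalization).

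**Figure D5:**
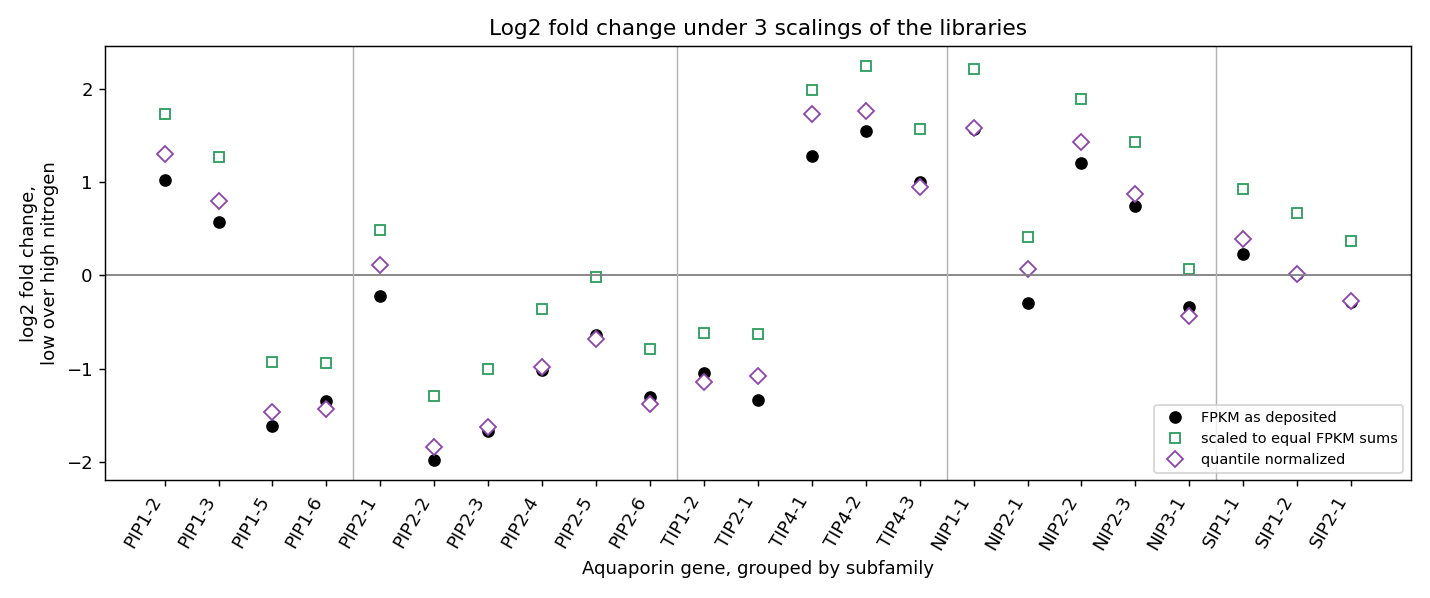
Log2 fold change, low over high nitrogen (vertical axis), of each tested aquaporin gene with FPKM as deposited, scaled to equal FPKM sums and quantile normalized. Equal sums raise every gene, and PIP2-1, NIP2-1, NIP3-1 and SIP2-1 cross 0, while PIP2-2 stays at -1.29 and TIP4-2 reaches 2.24.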

How the data were processed

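The deposited FPKM are those the authors derived from paired-end reads mapped with TopHat2 (B73 RefGen_v3) and assembled by StringTie. The table has 44070 rows for 43110 loci, since 865 loci repeat their values under several names. Positions were written counting from 1. Members were matched by name alone. The members, lists and tests were chosen with earlier results of these data known, and all tested members are named.

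A locus was tested where 2 or more libraries reached 1 FPKM, the study's own limit. Treatments were compared on log2(FPKM + 1) by limma 3.58.1 (R 4.3.3) with an intensity trend in its empirical Bayes step, adjusting over 22889 loci by Benjamini-Hochberg. The fit was tested on simulated data, where 200 well expressed loci were given changes larger than that of any aquaporin gene here. It called 126 of these (63%) and 6 other loci. How often it would call smaller changes was not tested. FPKM give no intervals for counting error. Further gene names are RefSeq's (Zm-B73-REFERENCE-NAM-5.0), without its coordinates. Tables and plots were made in Python 3.11.15 with pandas 2.3.3 and matplotlib 3.10.9. The choices varied were the pseudocount, the minimum, the scaling, the trend, the block and the libraries included. The locus RefSeq lists as PIP1-1 was tried once the values had been seen.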

Additional observations from a re-analysis of the deposited data

How the results depend on the processing

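The number of aquaporin genes called was 0 under every alternative run except the replicate block, with which PIP2-2 was the 1 called (log2 fold change -1.98, limma adjusted p = 0.0283). Libraries with the same number share only that number in the sources, and across loci their departures from the treatment mean correlated at 0.203. Over all loci 123 were called, 617 with the replicate block, 60 at equal FPKM sums, 23 with no minimum, and 0 to 16 with 1 library left out. The calls were 112 lower and 11 higher in the main comparison, 474 and 143 with the block, and 49 and 11 at equal FPKM sums. The cause of these shifts was not tested. With 1 library left out the fit also had fewer libraries, and the part of this was not tested either.

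Direction was kept by 16 of the 23 tested genes under each alternative that gave them a value. PIP1-6, PIP2-6, TIP1-2 and NIP3-1 had none at a minimum of 5 FPKM, and the trend and the fold threshold do not enter the fold change. Equal FPKM sums reversed the sign of PIP2-1 (0.49), NIP2-1 (0.41), NIP3-1 (0.070) and SIP2-1 (0.36). The median of all tested loci was 0.59 on that scale, and these genes stayed below it. Quantile normalization reversed PIP2-1 (0.11) and NIP2-1 (0.064). Leaving out 1 library reversed PIP1-3 (-0.12 without low nitrogen replicate 2 and -0.21 without high nitrogen replicate 1, in a range up to 1.35), PIP2-1 (0.054 without high nitrogen replicate 2, in a range from -0.49), NIP2-2 (-0.24 without high nitrogen replicate 1, in a range up to 2.64) and SIP1-2 (-0.23 without low nitrogen replicate 1 and -0.13 without high nitrogen replicate 1).

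The median log2 fold change of the PIP1 genes was -0.39, and 0.57 over the 3 genes left by a minimum of 5 FPKM, 0.17 at equal FPKM sums and -0.87 to 0.09 with 1 library left out. That of the PIP2 genes was -1.16, and it was -0.57 at equal FPKM sums and -1.94 to -0.43 with 1 library left out. That of the TIP genes was 1.002, and it was 1.23 with a pseudocount of 0.1 FPKM, 1.57 at equal FPKM sums, -0.017 with no minimum over 9 genes, and 0.75 to 1.06 with 1 library left out. That of the NIP genes was 0.74, and it was 1.43 at equal FPKM sums and -0.24 to 1.08 with 1 library left out. That of the SIP genes was 0.02, and it was 0.67 at equal FPKM sums and -0.16 to 0.26 with 1 library left out. Depth was not known from FPKM, so differences at genes near 1 FPKM such as NIP3-1, PIP1-6 and TIP1-2 carry a counting error that could not be given.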
